A study of Mus musculus with 6 samples.

Results

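Lymphocytes reach, stay in and leave their organs through a small set of surface receptors and adhesion molecules, and 10 genes of this set were followed here in mouse pro-B cells before and after deletion of the transcription factor gene Foxo1. The genes were taken by name, as a set put together with earlier results of these arrays known: the chemokine receptors Ccr7, Cxcr4 and Cxcr5, the sphingosine 1-phosphate (S1P) receptors S1pr1 and S1pr4, the transcription factor Klf2, the integrin chains Itga4, Itgal and Itgb7, and the hyaluronan receptor Cd44. All 10 of 10 were found among the 19937 genes that the array's annotation pairs with a probe set of their own, each with 1 probe set. Total RNA came from pro-B cells, an early stage of B cell development, transformed with the v-Abl oncogene, which holds them in growing culture. All cells were of strain C57/BL6 and genotype Foxo1f/f; ERCre: both Foxo1 alleles carry loxP sites, and Cre recombinase is fused to the oestrogen receptor and is activated by tamoxifen. Untreated cells (3 samples, Foxo1 alleles intact by design) were compared with cells given 1 µM tamoxifen for 2 days (3 samples), 1 array each. Cells given tamoxifen while keeping Foxo1 were not analysed here, so the effect of the drug and that of the deletion cannot be told apart. No label states that the samples of a group were separate cultures, so p-values speak only to the spread among these samples, and that spread may be technical.

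Chemokine receptors steer a cell along a gradient of secreted ligand: Cxcr4 holds B cell precursors beside the Cxcl12-producing stroma of the bone marrow, Ccr7 draws lymphocytes into lymph nodes, and Cxcr5 draws B cells into follicles. S1pr1 works the other way, sensing the lipid S1P of blood and lymph and letting cells leave an organ, and integrins fix cells to ligands on stroma and vessel walls. Klf2 is a zinc finger factor that maintains S1pr1 in lymphocytes, and Foxo1 is itself known as an activator of Klf2 and Ccr7 in T cells.

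RefSeq's table of promoter windows (build GRCm38.p6) held 6 of the 10 genes, of which 2 are shown because Foxo1 was the deleted factor: Cxcr4, whose window had the most matches to the FOXO core, and Klf2, the known FOXO target, whose window had 0. Each is the 250 bases upstream of the RefSeq start, 5′ to 3′ on the gene's strand, and capitals mark the core AAACA or its reverse complement TGTTT.
Cxcr4, chr1:128592300-128592549, minus strand: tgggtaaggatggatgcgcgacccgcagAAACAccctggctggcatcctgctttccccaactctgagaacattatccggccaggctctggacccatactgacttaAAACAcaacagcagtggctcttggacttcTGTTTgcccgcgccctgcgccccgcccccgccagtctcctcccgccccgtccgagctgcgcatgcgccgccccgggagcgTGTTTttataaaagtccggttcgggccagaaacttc
Klf2, chr8:72318812-72319061, plus strand: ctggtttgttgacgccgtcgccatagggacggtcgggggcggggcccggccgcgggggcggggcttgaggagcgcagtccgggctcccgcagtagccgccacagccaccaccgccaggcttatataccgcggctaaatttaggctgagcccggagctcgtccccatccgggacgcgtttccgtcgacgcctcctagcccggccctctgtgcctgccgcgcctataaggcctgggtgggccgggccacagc
The Cxcr4 window had 4 core matches, S1pr4 had 2 and Itga4 had 1, while Klf2, Itgb7 and Cd44 had 0. The Itgb7 window (102231936 to 102232185, minus strand) lay inside the gene, whose RefSeq gene start is 102233405. That of Cd44 overlapped its gene start, so the counts for Itgb7 and Cd44 are not wholly upstream of those starts. The 5-letter core is common: 46.4% of the 32851 windows of this length held it, and 2.30% held it 4 or more times. The longer consensus GTAAACA, which contains the core, was in 0 of the 6 windows and in 3.17% of all windows, counted on both strands. A match in these letters is a description of the window and not evidence of a binding site.

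The arrays were alike in scale (medians 100.9 to 109.1), and precision is limited by their number. The label check held for the targeted gene: Foxo1 fell from 806, 624 and 512 intensity units in the untreated samples to 116, 151 and 134 after tamoxifen, or -2.13 ± 0.15 (SE) on the log2 scale (limma adjusted p = 0.0178), although the sources used here do not say whether its probes lie in the deleted part. With 1 array left out the Foxo1 call held only without untreated sample 1 (limma adjusted p = 0.0276) and was lost without any other sample (0.0843 to 0.156), with the difference between -2.26 and -1.97. Of 13 pro-B markers 11 had a mean at or above the median of all probe set means, such as the surrogate light chain gene Igll1 (3449 and 4184 in the untreated and tamoxifen means), and Rag1 (68.7 and 52.5) and Rag2 (46.3 and 31.8) were below it. Of 8 T cell markers 1 was at or above that median, Cd3e (110 and 106), and Cd5 (106 and 99.7) lay nearest below it. The other CD3 chains Cd3d (29.4 and 28.9) and Cd3g (28.7 and 28.6) lay below the lowest lower quartile of any array (43.3). At or above the median were 1 of 10 myeloid, 4 of 10 NK, plasma and stromal, and 4 of 6 erythroid and megakaryocyte markers. Among these Pecam1 (499 and 614) was the brightest, and no marker was listed at 0. Col1a1 (207 and 197), Col1a2 (168 and 161) and Fcgr3 (175 and 156) were also above the median. A mean above it therefore does not by itself show that a gene is expressed in these cells. The summed intensity of 13 pro-B markers ran from 19358 to 22289 in untreated samples and from 22342 to 24141 after tamoxifen, with 6 of 13 higher and 2 lower at an unadjusted limma p under 0.05, a level that 5.11% of all probe sets reached (2.97% with tamoxifen higher). That of 8 T cell markers ran from 454 to 548 and from 454 to 532, that of 10 myeloid markers from 675 to 773 and from 686 to 735, that of 10 NK, plasma and stromal markers from 1200 to 1554 and from 1334 to 1527, and that of 6 erythroid and megakaryocyte markers from 556 to 621 and from 529 to 588. The 2 lower pro-B markers were Dntt (385 and 144 in the untreated and tamoxifen means) and Ebf1 (1955 and 1384), so the markers moved both ways. The part of the pro-B marker shift in the values below was not tested. In a bulk sample, fewer cells expressing a gene and less RNA per cell cannot be told apart.

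None of the homing, egress and integrin genes passed the test for a difference after Foxo1 deletion. Fold changes below are from limma on the quantile normalised log2(intensity + 16) scale, which understates changes of dim genes, and adjusted p-values are Benjamini-Hochberg values over all 34760 probe sets. At an adjusted p of 0.05, 0 of 10 genes were called, where 0.0575% of all probe sets were called. At an unadjusted p under 0.05 there were 3 of 10, Itgal, Ccr7 and Cxcr5, all with higher tamoxifen means, where 5.11% of all probe sets reached that level (2.97% with tamoxifen higher). The groups did not overlap for 3 of 10, Ccr7, Itgal and Klf2, again with tamoxifen higher, where 5.03% of all probe sets did so in that direction and 9.89% in either. Of the 10 log2 fold changes 6 were positive and 4 negative, with a median of 0.16 and a range from -0.19 to 0.39, beside a median of -0.01 over all probe sets. The set was put together with earlier results of these arrays known, so these counts describe it and are no test of it.

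**Figure D1:**
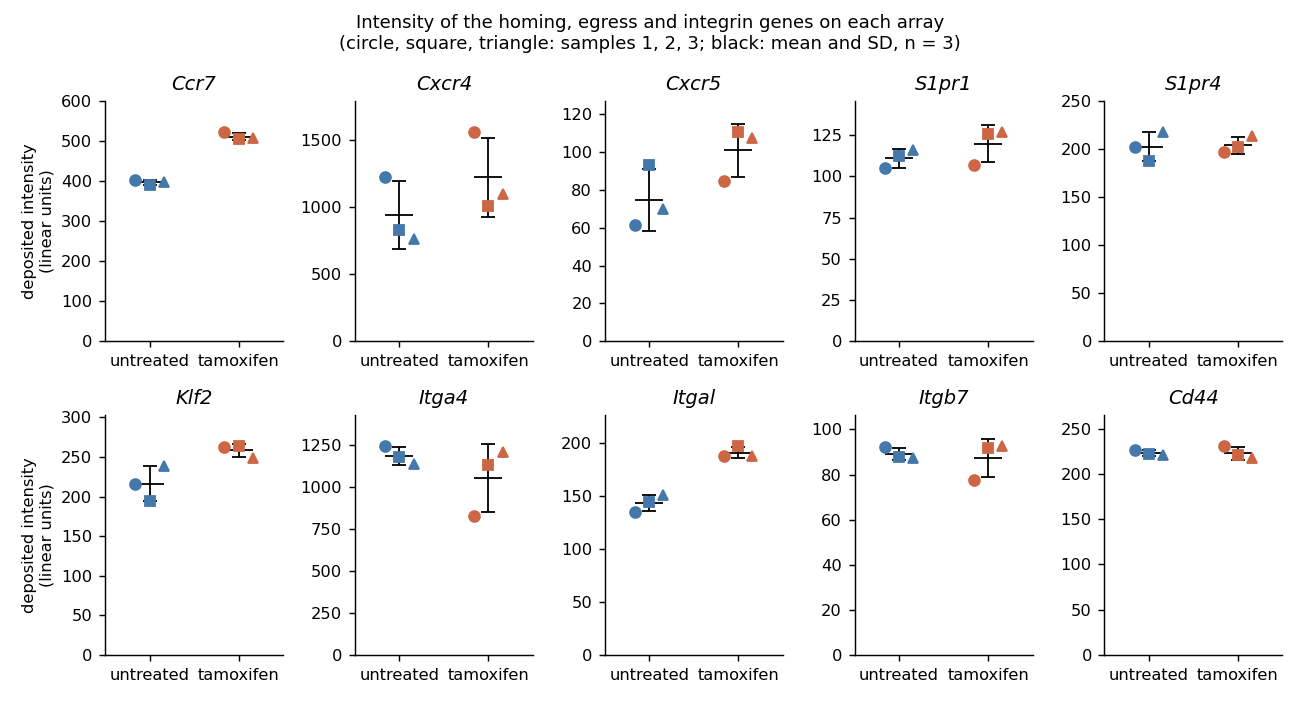
Deposited intensity (linear units, vertical axes from 0 and scaled per gene) of each of the 10 genes on the 3 untreated (blue) and 3 tamoxifen (orange) arrays, with circles, squares and triangles for samples 1, 2 and 3 and black lines for the mean and SD (n = 3). The groups stand apart for Ccr7 (390 to 403 against 504 to 522), Itgal (135 to 151 against 188 to 197) and Klf2 (195 to 238 against 249 to 264), and overlap for the other 7 genes.

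Among the chemokine receptors, Ccr7, the receptor for Ccl19 and Ccl21, had intensities of 403, 390 and 398 in the untreated cells (samples 1, 2 and 3) and 522, 504 and 506 after tamoxifen (samples 1, 2 and 3). The 3 tamoxifen values lay close together and all above the untreated ones. The means were 397 ± 6.31 and 511 ± 9.56 (SD, n = 3), 1.26-fold with a 95% interval of 1.13 to 1.41. This gap exceeded the spread within either group, yet the limma adjusted p was 0.369. The unadjusted limma p of 0.00213 was the 199th lowest of 34760.

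Cxcr4, the receptor for Cxcl12, was bright and variable. Intensities were 1229, 827 and 763 in untreated samples and 1560, 1008 and 1100 after tamoxifen. In both groups sample 1 was the highest, and the untreated sample 1 exceeded tamoxifen samples 2 and 3, so the groups overlapped. The means were 940 ± 253 and 1223 ± 296 (SD, n = 3), which gives 0.37 ± 0.19 (SE) on the log2 scale, a 95% interval of -0.09 to 0.84 and a limma adjusted p = 1.00. The point value was about that of Ccr7, but the interval reached from a small decrease to 1.79-fold.

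Cxcr5, the receptor for the follicle chemokine Cxcl13, was dim, with a mean above that of only 43.7% of probe sets. It measured 61.6, 93.2 and 69.7 in untreated samples and 84.9, 111 and 108 after tamoxifen. Untreated sample 2 lay above tamoxifen sample 1, and the other untreated samples lay below all tamoxifen ones. The means were 74.8 ± 16.4 and 101 ± 14.1 (SD, n = 3), which gives 0.39 ± 0.14 (SE) on the log2 scale and a limma adjusted p = 0.882.

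The S1P receptors were near-level between the groups. S1pr1, the egress receptor, measured 105, 112 and 116 in untreated samples and 107, 126 and 127 after tamoxifen, so that tamoxifen samples 2 and 3 were above all untreated samples and tamoxifen sample 1 was among them. Its log2 fold change was 0.11 ± 0.07 (SE), with a 95% interval of -0.05 to 0.27, or up to 1.21-fold. S1pr4, a second S1P receptor of blood cells, measured 202, 187 and 217 in untreated samples and 196, 201 and 213 after tamoxifen. The untreated values enclosed all 3 tamoxifen values, and the log2 fold change was -0.0035 ± 0.08 (SE), with a 95% interval of -0.20 to 0.19 and a sign that turned with other scalings. The limma adjusted p was 1.00 for both genes.

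Klf2 measured 216, 195 and 238 in untreated samples and 262, 264 and 249 after tamoxifen. All tamoxifen values were above all untreated ones, but the nearest pair, untreated sample 3 and tamoxifen sample 3, were only a little apart. The means were 216 ± 21.8 and 258 ± 8.15 (SD, n = 3), 1.16-fold with a 95% interval of 0.994 to 1.36 and a limma adjusted p = 0.990. Without untreated sample 2 its log2 fold change was 0.14 in place of 0.22, and with any 1 array left out it ran from 0.14 to 0.31. Klf2 was not lower on any tamoxifen array than on an untreated one.

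Of the integrin chains, Itgal had the lowest p of the set. Itgal pairs with Itgb2 to form LFA-1, which binds Icam1 and other ligands on neighbouring cells. Intensities were 135, 144 and 151 in untreated samples and 188, 197 and 188 after tamoxifen. The groups stood well apart, at 143 ± 7.72 and 191 ± 5.41 (SD, n = 3), 1.30-fold with a 95% interval of 1.17 to 1.44. Its limma adjusted p was 0.227 (unadjusted 0.000707, the 107th lowest of 34760), so the difference exceeded the replicate spread without passing the adjusted threshold. Its partner chain Itgb2 measured 161, 154 and 161 in untreated samples and 187, 173 and 175 after tamoxifen, without overlap, a log2 fold change of 0.14 ± 0.06 (SE, unadjusted p = 0.0574, limma adjusted p = 0.990).

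Itga4 joins Itgb1 to bind Vcam1 on bone marrow stroma, and joins Itgb7 to bind Madcam1 on gut vessels. It measured 1242, 1176 and 1133 in untreated samples and 824, 1129 and 1206 after tamoxifen. Tamoxifen sample 1 stood far below the other 5 arrays, which overlapped. The log2 fold change was -0.19 ± 0.18 (SE, limma adjusted p = 1.00), and without tamoxifen sample 1 it was 0.019, so the negative value rested on that array. Itgb1 measured 1293, 1468 and 1394 in untreated samples and 1650, 1365 and 1390 after tamoxifen, with tamoxifen sample 1 here the highest of all 6 arrays (log2 fold change 0.07 ± 0.08, SE).

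Itgb7, the chain shared by the gut-homing pairs with Itga4 and Itgae, was dim and level. It measured 92.2, 87.8 and 87.2 in untreated samples and 77.6, 91.8 and 92.7 after tamoxifen, with tamoxifen sample 1 the lowest array and the other values interleaved. The log2 fold change was -0.012 ± 0.07 (SE), with a 95% interval of -0.18 to 0.16, and it was positive with array weights or without either sample 1. Itgae, its other partner, measured 83.8, 86.6 and 89.8 and then 81.9, 106 and 98.8, a log2 fold change of 0.13 ± 0.08 (SE) with overlapping groups.

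Cd44, which binds the matrix sugar hyaluronan, had the narrowest interval of the 10 genes. It measured 226, 222 and 221 in untreated samples and 231, 221 and 217 after tamoxifen, and the tamoxifen values lay on both sides of the untreated ones. The means were 223 ± 2.98 and 223 ± 7.16 (SD, n = 3), with a 95% interval on the fold change of 0.902 to 1.09 (the sign of the log2 value turned when arrays were scaled to a common median).

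**Figure D2:**
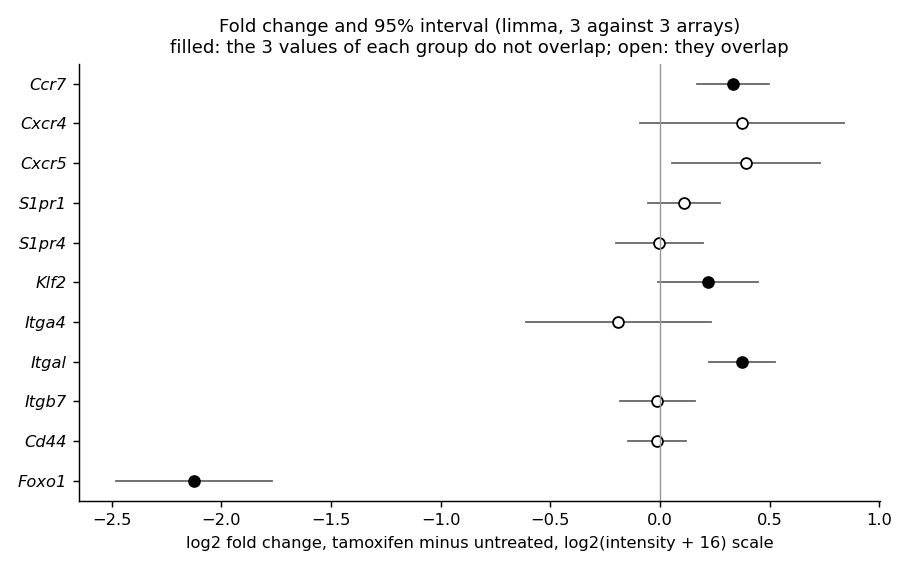
Log2 fold change (tamoxifen minus untreated, log2(intensity + 16) scale, horizontal axis) of the 10 genes and Foxo1 with 95% intervals from limma on 3 against 3 arrays; filled points mark genes whose groups do not overlap. Only Ccr7, Cxcr5 and Itgal of the 10 have intervals wholly above 0, Cxcr4 (-0.09 to 0.84) and Itga4 have the widest, and Foxo1 lies far to the left at -2.13.

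Precision differed among the genes. The SE of the log2 fold change was lowest for Cd44 (0.06) and Itgal (0.06) and highest for Cxcr4 (0.19) and Itga4 (0.18), although the last pair were bright. Tamoxifen sample 1 was the outlying array of its group for Cxcr4, Cxcr5, S1pr1, Itga4 and Itgb7, far from the other 2 tamoxifen arrays, high for Cxcr4 and low for the others. Without that array the log2 fold change was 0.23 for Cxcr4, 0.47 for Cxcr5 and 0.16 for S1pr1, and none of these was called. Of the 10 genes 8 had a mean at or above the median of all probe set means, and Cxcr5 and Itgb7 lay below it. That bar is low, since the stromal markers Col1a1 and Col1a2 and the T cell marker Cd3e also reached it. S1pr1 (111 and 120 in the untreated and tamoxifen means) lay near Cd3e (110 and 106). The untreated mean of Itgal (143) was below that of Col1a2 (168), and its tamoxifen mean (191) above that of Col1a2 (161).

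Genes with the array-by-array pattern most like each of the 8 brighter members were sought among named genes at or above that median, by Pearson correlation over 6 arrays. These are the highest of many values and are given as a description only, and the difference between the groups enters them. Unc93b1, which carries Toll-like receptors to endosomes, was most like Ccr7 (r = 0.992), Ttc19, a mitochondrial protein, was most like Itgal (0.991), and Sowahb was most like Klf2 (0.985). For Cxcr4 the closest was the cytoskeletal gene Actb (0.998). S1pr1 was closest to Glcci1 (0.995), S1pr4 to Pym1 (0.996), Itga4 to Prrc2c (0.995) and Cd44 to a RIKEN transcript, 4930579G24Rik (0.982).

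Other genes of the same pathways gave no call either. Of 156 genes listed by role 149 were measured, and limma called 0 of 149 at an adjusted p of 0.05, against the 0.0575% called over all probe sets. At an unadjusted p under 0.05, 11 were higher and 3 lower after tamoxifen, or 14 of 149 where all probe sets gave 5.11%. The fold changes were split evenly, 74 positive and 75 negative, with a median of -0.0023.

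Among 22 further chemokine and related receptors (11 positive, median 0.00044), Ptger4 came closest to the threshold. Ptger4, a receptor for prostaglandin E2, measured 545, 549 and 472 in untreated samples and 343, 312 and 270 after tamoxifen. The groups were far apart, at -0.76 ± 0.08 (SE) on the log2 scale (limma adjusted p = 0.0642). Of the rest, Ccr2 (0.52 ± 0.16, SE, dim at 53.8 and 84.4) and Cxcr6 (-0.16 ± 0.06, SE) had an unadjusted p under 0.05. Gpr183, which positions B cells by sensing oxysterols, measured -0.21 and the scavenging receptor Ackr2 0.16, both with overlapping groups. Of 15 chemokine ligands 12 were negative, and none had an unadjusted p under 0.05, beside 18745 negative of all 34760 probe sets. Most of these ligands were dim, with 12 of 15 below the median of all probe set means. Ccl19, a Ccr7 ligand, measured 1732 ± 656 and 1357 ± 382 (SD, n = 3) on the brightest of its 4 probe sets, a log2 difference of -0.33 ± 0.36 (SE). Ccl5 (-0.08) and Ccl25 (-0.08, the brightest of 2 probe sets) lay within their spread.

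Downstream of the receptors, 22 genes of G protein signalling and desensitisation were measured, with 13 positive and a median of 0.02. Rgs2, which switches G proteins off, measured 895 ± 91.0 and 658 ± 21.4 (SD, n = 3), a log2 difference of -0.45 ± 0.09 (SE, limma adjusted p = 0.36). Dock2, an activator of Rac in migrating lymphocytes, measured 0.17 ± 0.06 (SE), Arhgef1, an exchange factor for small GTPases, 0.21 ± 0.08 (SE) and Rac2 itself 0.37 ± 0.14 (SE). Their limma adjusted p lay between 0.827 and 0.916. The groups of Dock2 and Arhgef1 did not overlap, whereas untreated sample 1 of Rac2 (1353) exceeded tamoxifen sample 2 (1301) in deposited intensity, an overlap that was gone after quantile normalisation.

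In the S1P pathway 14 genes were measured, 9 positive with a median of 0.03. The S1P lyase Sgpl1, which degrades S1P inside cells, measured 255 ± 19.3 and 328 ± 49.9 (SD, n = 3), a log2 difference of 0.32 ± 0.09 (SE, limma adjusted p = 0.69), and the S1P phosphatase Sgpp1 measured 0.19 ± 0.08 (SE). Cers2, a ceramide synthase, measured 0.13 with overlapping groups. The other S1P receptors S1pr2 (-0.08), S1pr3 (0.05) and S1pr5 (0.03) all had overlapping groups, as S1pr1 and S1pr4 had. Cd69, which pulls S1pr1 from the surface, measured 810, 1106 and 977 in untreated samples and 1068, 896 and 827 after tamoxifen, with a log2 fold change of -0.06 ± 0.13 (SE).

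The other 15 KLF genes had 7 positive members and a median of -0.02. Klf6 measured 224 ± 20.6 and 291 ± 10.1 (SD, n = 3), a log2 difference of 0.34 ± 0.07 (SE, limma adjusted p = 0.396), and Klf7 measured 333 ± 5.19 and 407 ± 10.9 (SD, n = 3), a log2 difference of 0.25 ± 0.07 (SE, limma adjusted p = 0.69). Neither group pair overlapped, as for Klf2. Klf10 measured -0.09 ± 0.06 (SE).

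Among 23 other integrin chains 10 were positive, the median was -0.0053 and none had an unadjusted p under 0.05. Among the brighter chains the lowest p after Itgb2 belonged to Itga6, a laminin receptor chain of haematopoietic precursors, at -0.23 ± 0.11 (SE), and to Itga10 at -0.11 ± 0.08 (SE). Of 18 genes listed under integrin activation and signalling 15 were positive, with a median of 0.06, beside 16015 positive of all 34760 probe sets. At an unadjusted p under 0.05 there were 3 of 18, beside the 5.11% of all probe sets. Stk4, a kinase that acts with Rassf5 on LFA-1, measured 1767 ± 185 and 2195 ± 136 (SD, n = 3), a log2 difference of 0.32 ± 0.07 (SE, limma adjusted p = 0.384). Skap2, an adaptor of integrin signalling, measured 0.17 ± 0.05 (SE) and Vav1, a Rac activator, 0.39 ± 0.15 (SE). Of 7 integrin ligands 6 were negative, none with an unadjusted p under 0.05, beside 18745 negative of all 34760 probe sets. Icam1 (-0.05), Icam2 (-0.07) and Jam3 (0.03) lay within their spread.

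Of 13 selectin and CD44 axis genes 5 were positive, with a median of -0.01. Cd74, the invariant chain of MHC class II and a partner of Cd44 in sensing the cytokine MIF, had the largest log2 fold change of the 149 genes. It measured 145 ± 39.2 and 450 ± 49.4 (SD, n = 3), a log2 difference of 1.56 ± 0.21 (SE, limma adjusted p = 0.132) with no overlap between groups. The membrane-to-actin linkers Msn and Ezr, which join the tail of CD44, measured 0.19 ± 0.09 and 0.14 ± 0.08 (SE) with overlapping groups.

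**Figure D3:**
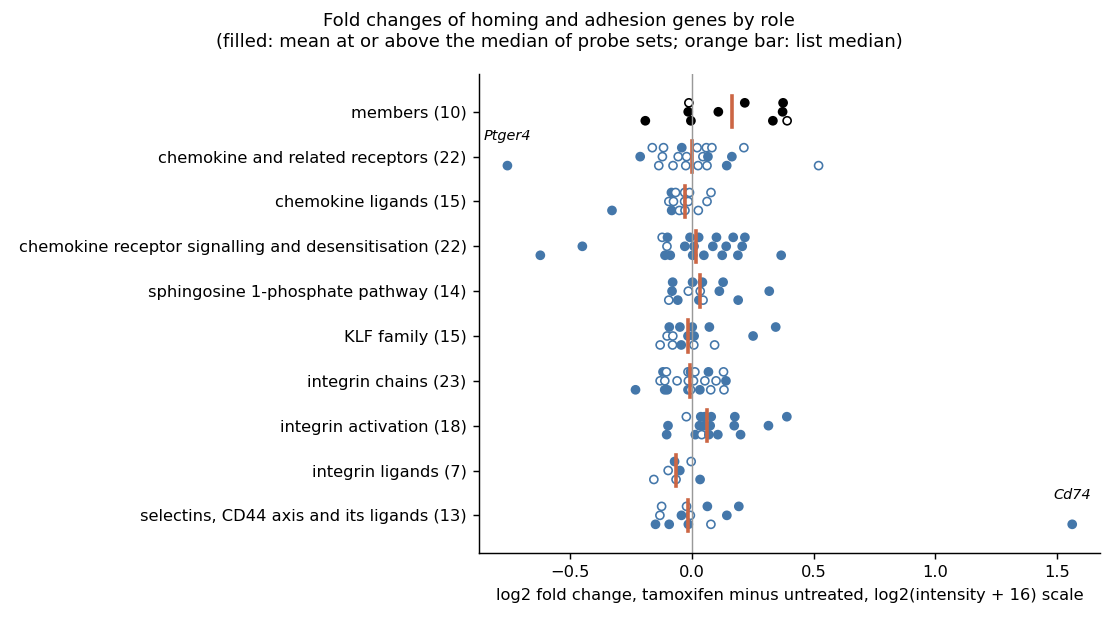
Log2 fold change (tamoxifen minus untreated, log2(intensity + 16) scale, horizontal axis) of the 10 genes (black, top row) and of 149 other homing and adhesion genes (blue) in rows by role with the number measured; filled points have a mean at or above the median of probe sets and orange bars mark list medians. List medians lie between -0.06 (integrin ligands) and 0.06 (integrin activation), the 10 genes' median is 0.16, and Ptger4 (-0.76) and Cd74 (1.56) stand apart from their rows.

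The fold changes were recomputed under 17 alternatives in normalization, filtering, pseudocount, variance model, block and arrays used. None of the 10 genes was called under any alternative that tested it (Cxcr5 and Itgb7 were not tested where dim probe sets were left out), and 158 of the 168 values kept the reported sign. Itgal ran from 0.30 to 0.41 and Ccr7 from 0.29 to 0.38 on the log2 scale, whereas Cxcr4 ran from 0.23 to 0.55.

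**Figure D4:**
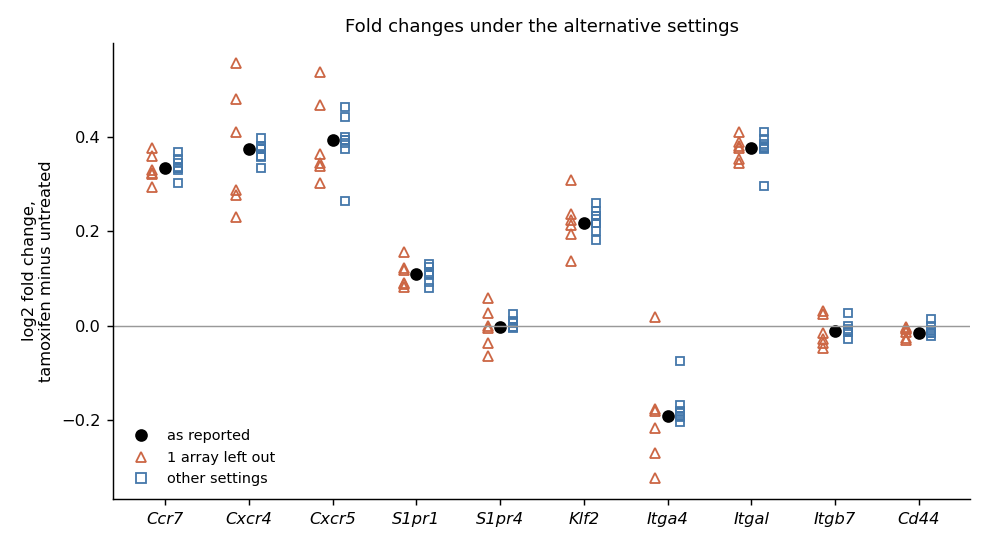
Log2 fold change (vertical axis, log2 scale) of each of the 10 genes as reported (black), with 1 array left out (orange triangles) and under the other settings (blue squares). Ccr7, Cxcr4, Cxcr5, S1pr1, Klf2 and Itgal stay above 0 throughout, while S1pr4, Itgb7 and Cd44 lie on both sides of 0 and Itga4 reaches 0.019 without tamoxifen sample 1.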

How the data were processed

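Total RNA of the 6 samples was converted to biotinylated cRNA and hybridised to gene-level arrays, per the labels' protocols. The deposited values are linear intensities that the authors had summarised to 1 value for each probe set on each array; their background correction and normalization are not given in the sources used here. Intensities were taken to log2(value + 16) and quantile normalised. The groups were tested in R 4.3.3 by the moderated linear model of limma 3.58.1, two-sided, and p-values were adjusted by the Benjamini-Hochberg method across the 34760 probe sets (threshold 0.05); no filter on low values was used. Printed intensities, means and SDs are the deposited linear values. Of the probe sets 21640 have 1 gene symbol, 1321 several and 11799 are not listed; the brightest stands for a gene. Gene names come from the platform annotation, and 0 changed through Entrez IDs in a RefSeq table of GRCm38.p6. The members and lists were chosen with earlier results of these data known. All members were named, and of each further list the genes past the threshold, the 3 of lowest p among brighter probe sets, and fixed partners. Ccr2, Cxcr6 and Rac2 fall outside that rule and were named after their values were seen. The fit was run on simulated data as a check, and the outcome is not reported here. The 17 alternatives are another normalization, filter, pseudocount or variance model, a replicate block, and each array left out. Figures were drawn with matplotlib 3.10.9.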

Additional observations from a re-analysis of the deposited data

How the results depend on the processing

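No setting called a member: 0 of 10 passed under 16 of the 17 alternatives and 0 of 8 with dim probe sets left out, where Cxcr5 and Itgb7 were not tested, with 2 to 4 at an unadjusted limma p under 0.05. The lowest adjusted p was 0.0702 for Itgal and 0.130 for Ccr7, both with the probe sets of each gene averaged and fewer features tested. Of 168 member values 158 kept their sign. The 10 that reversed were near 0 (with 1 array left out Itga4 ran from -0.32 to 0.019, Itgb7 from -0.046 to 0.031 and S1pr4 from -0.064 to 0.059): Cd44 at 0.014 with a common median; Itga4 at 0.019 without tamoxifen 1; Itgb7 at 0.027 with array weights, 0.025 without untreated 1 and 0.031 without tamoxifen 1; and S1pr4 at 0.0059 with cyclic loess, 0.025 with a common median, 0.0098 with no further normalization, 0.059 without untreated 3 and 0.026 without tamoxifen 1.

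Over all probe sets 20 were called, against 3 with a common median, 12 with no further normalization, 11 with a pseudocount of 1, 12 with trend and robust eBayes and 39 with array weights. Leaving out dim probe sets gave 46, keeping those with 1 gene 65 and averaging per gene 73, where fewer features are tested, and with 1 array left out 0 to 6. The cause of these changes in count was not tested, for those 3 filters as well. In the same 3 settings Ptger4 and Cd74 passed, with lowest adjusted p of 0.00799 and 0.0163 (highest over all alternatives 0.443 and 0.554). These checks of Ptger4 and Cd74 were added after the data were seen. Foxo1 kept a log2 fold change of -2.12 with a common median but lost its call (adjusted p = 0.05003), and ran from -2.26 to -1.97 with 1 array left out, where it was called only without untreated 1 (adjusted p = 0.0276, otherwise 0.0843 to 0.156).

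With the replicate block 0 probe sets were called by limma (2525 had an unadjusted p under 0.05), and Foxo1 (-2.13) had an adjusted p = 0.0936. Deviations of same-numbered samples correlated at 0.256, 0.0547 and 0.302, and untreated 2 correlated best with tamoxifen 1 (0.103). Pairs with different numbers ran from -0.420 to 0.248. The labels give same-numbered samples nothing in common but the number, and whether they share a batch or culture was not tested. Under the block the SE of Cxcr4 was 0.07 in place of 0.19 (adjusted p = 0.328).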
